A study of Mus musculus with 12 samples.

Results

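The cells described here are 400 Gkn3-positive, non-cycling stem cells of the mouse small intestine, taken from a pooled table of 27881 sorted epithelial cells and 20090 genes. A cell was eligible if it had a value above 0 for Gkn3 and 0 for the division genes Top2a, Hist1h1b, Ccnb1 and Cdt1, which left 1018 cells. Eligible cells were ranked by a stem score, the mean over Lgr5, Ascl2, Olfm4, Smoc2, Slc12a2, Axin2, Rgmb and Igfbp4 of the natural log of 1 plus the value per 10000 of the cell's total, and the 400 highest are the members. Because these measured values chose the members, every level below is a description with no test, and differences in the rule genes are not findings.

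The table came from the 8 diet samples of a droplet-based 3′ single-cell RNA sequencing series with 12 samples. All diet samples held CD45-negative, EpCAM-positive epithelial cells of adult mice of the strain Lgr5DTR-GFP, a name used for a knock-in of a diphtheria toxin receptor and GFP reporter at the stem cell gene Lgr5. The series text describes 30 equal segments of the gut tagged with MULTI-seq oligonucleotides and pooled, and neither the segment nor the diet of a cell was used here. Cell barcodes fall into 8 numbered sets that do not match the sample titles, so the table was treated as 1 pooled sample and the sets are given as values and ranges. Whether different sets hold cells of different mice is unknown.

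Intestinal stem cells sit at the base of the crypt and renew the epithelium. Wnt ligands and R-spondins act on their Frizzled, Lrp5, Lrp6, Lgr4 and Lgr5 receptors, and the target genes Lgr5, Ascl2, Axin2, Rnf43 and Znrf3 rise with the signal, the last 3 acting as feedback inhibitors. Position along the gut is set by transcription factors, with Gata4 restricted to the proximal small intestine and homeobox genes of the Hox clusters marking position along the body axis. Gkn3 belongs to the gastrokines, a family of secreted proteins best known from the stomach, and Bex1 is a small brain-expressed X-linked protein. In this report Gkn3-positive members are set beside 400 non-cycling stem cells with Bex1 and without Gkn3, chosen by the same score from 828 eligible cells, and beside the 400 highest-scoring of 1963 Gkn3-positive cells that had a value for at least 1 of the 4 division genes.

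Gkn3 lies on chromosome 6 from 87383256 to 87388935, minus strand (mouse build GRCm38, GENCODE M21 annotation). The promoters of Gkn3, of Nrg4, a ligand gene that was higher in the members, and of the related genes Bex1, which chose the comparison cells, and Bex4, which was lower in the members, are shown here, since the comparisons below turn on these genes. Each is 300 bases of RefSeq sequence (GRCm38.p6), 5′ to 3′ on the gene's strand, with its annotated start after the base numbered -1. The windows are chr6:87388886-87389185 for Gkn3, chr9:55283576-55283875 for Nrg4 and chrX:136215464-136215763 for Bex1, all on the minus strand, and chrX:136138746-136139045 for Bex4 on the plus strand. Capitals mark the letters AGATAA (the GATA motif), CTTTGA (TCF/LEF) and ATTGAT (Onecut), on either strand.
Gkn3: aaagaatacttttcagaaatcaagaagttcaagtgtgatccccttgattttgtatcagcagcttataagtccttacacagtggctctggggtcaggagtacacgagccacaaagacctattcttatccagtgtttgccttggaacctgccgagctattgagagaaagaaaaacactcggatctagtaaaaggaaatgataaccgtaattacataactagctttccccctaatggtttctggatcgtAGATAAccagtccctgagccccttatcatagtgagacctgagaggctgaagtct
Nrg4: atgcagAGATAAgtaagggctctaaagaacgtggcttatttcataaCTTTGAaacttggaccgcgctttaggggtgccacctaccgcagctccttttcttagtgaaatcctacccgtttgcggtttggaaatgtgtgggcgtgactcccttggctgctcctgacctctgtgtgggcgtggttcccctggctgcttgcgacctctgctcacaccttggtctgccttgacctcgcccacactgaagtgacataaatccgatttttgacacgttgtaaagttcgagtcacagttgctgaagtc
Bex1: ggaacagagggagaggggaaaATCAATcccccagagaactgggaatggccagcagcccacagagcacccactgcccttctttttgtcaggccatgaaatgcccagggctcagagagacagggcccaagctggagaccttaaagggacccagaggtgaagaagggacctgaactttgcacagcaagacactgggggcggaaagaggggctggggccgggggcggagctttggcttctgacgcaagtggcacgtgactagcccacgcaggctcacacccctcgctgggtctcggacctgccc
Bex4: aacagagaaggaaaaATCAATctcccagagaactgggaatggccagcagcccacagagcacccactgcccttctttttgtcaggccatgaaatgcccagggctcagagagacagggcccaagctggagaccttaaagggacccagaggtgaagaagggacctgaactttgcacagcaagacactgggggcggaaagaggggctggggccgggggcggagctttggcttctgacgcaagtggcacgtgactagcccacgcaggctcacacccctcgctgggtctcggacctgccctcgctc
The Gkn3 window holds AGATAA from position -4, and the Nrg4 window holds AGATAA from -244 and CTTTGA from -204. Bex1 and Bex4 hold the Onecut motif, on the other strand, from -229 and -235, within windows that are identical at 291 aligned bases (95.1% of the alignment). Over 32851 mouse promoters of this length, 11.2% hold the GATA motif, 16% the TCF/LEF motif and 7.54% the Onecut motif. A match is only a match of letters. In the last 300 bases of their transcripts, where 3′ reads fall, Bex1 was 71.7% identical to Bex2 and 59.2% to Bex4. Gkn3 and its relative Gkn2 were 49.7% identical there.

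The members carried the stem markers, which their choice required: Lgr5, Ascl2, Olfm4 and Smoc2 are score genes and Gkn3 is the entry gene, so their levels describe the members and do not test the label. Levels are in ppm of the summed values of all genes over the cells of a group. The deposited values are whole numbers but do not behave as molecule counts, so the depth behind a level is unknown. Lgr5 was at 1353 ppm in the members and had a value in 99.2% of them, against 3.37 ppm and 2.25% of 400 cells with the highest enterocyte score, which should lack it. Smoc2, a matricellular protein gene, had a value in 98.5% of members and 3% of those enterocytes. Ascl2, the Wnt-driven transcription factor of stem cells, was at 73.1 ppm in members, with a value in 35.0% of them and 0.5% of enterocytes. Olfm4, a secreted glycoprotein gene, had a value in every member and in 30.2% of enterocytes, at 5243 ppm against 63.0 ppm. The median number of detected genes was 2692.5 in members and 2754 in enterocytes. All 5 markers were present in 138 members, 4 in 255 and 3 or fewer in 7.

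Gkn3 itself was sparse. Its value was 1 in 208 members, 2 in 105, 3 in 46 and above 3 in 41, with 31 as the highest value. Gkn3 had a value in 1.75% of the enterocytes and in 9.39% of all other cells. There was no gap in the score at the 400th cell: the last member scored 1.609 and the first cell outside it 1.607. That last member had values of 2 for Lgr5, 16 for Olfm4, 4 for Smoc2 and 1 for Gkn3, and the first cell outside had 4, 44, 2 and 1 for the same genes. Within 0.05 of the lowest member's score lay 32 members above it and 29 eligible cells below it.

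Members came from every barcode set, in unequal numbers. Sets 1 to 8 gave 20, 111, 56, 12, 73, 26, 52 and 50 members. As a share of a set's cells they were fewest in set 4, at 0.525% (exact binomial 95% interval 0.272 to 0.915), and most in set 5, at 2.60% (2.04 to 3.26), with a median of 1.27%. Of eligible cells, 17.1% passed the score in set 1 and 67.6% in set 5. These intervals cover counting error only, and the sort and loading of each set were not used here. Sets 2, 5 and 3 supplied the most members.

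**Figure D1:**
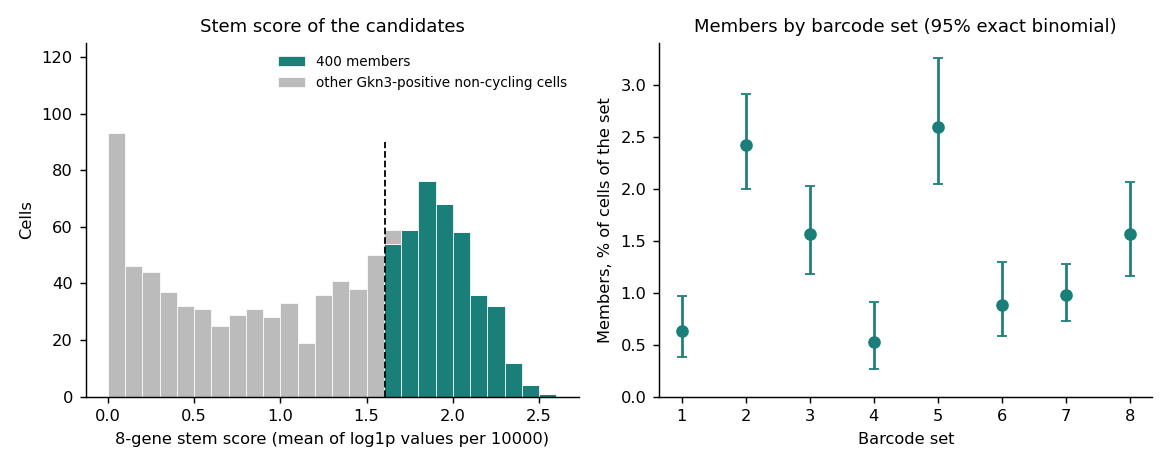
Left: histogram of the stem score of the 1018 Gkn3-positive non-cycling cells, with the 400 members in green and a dashed line at the lowest member's score (1.609). Right: members as a percent of the cells of each barcode set with exact binomial 95% intervals. The score runs through the line without a gap, and sets 2 and 5 hold the highest shares (2.42% and 2.60%).

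Non-epithelial marker genes were at or near 0 in the members, while those of other epithelial cells were not. The T cell, B cell, stromal, endothelial and red blood cell lists were each at 2.49 ppm or less in sum, with Cd3e, Jchain, Col1a2 and Hba-a1 at 0, and the myeloid list was at 8.73 ppm with Lyz2 at 0. The Paneth defensin gene Defa24 had a value in 95.8% of members and 88.2% of enterocytes. The 9 Paneth markers summed to 5083 ppm in members, 5063 ppm in Bex1-positive cells, 3806 ppm in cycling cells, 1355 ppm in enterocytes and 5404 ppm in all other cells. The goblet list summed to 1856 ppm in members and 4445 ppm in all other cells, the enterocyte list to 1290 and 18160 ppm, and the enteroendocrine list to 793 and 1107 ppm. Their part in the results below was not tested. A doublet caller marked 45 cells of the table (0.161%), too few to count as working, and no member, and 2 members had a barcode that also occurs in another set. Barcodes were shared by 80 pairs of cells in the whole table, none of them pairs of members.

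Set beside non-cycling stem cells with Bex1 and without Gkn3, the members had higher levels of Onecut2 and Gata4 and lower levels of Hoxb genes. No Wnt or Notch gene on the lists was called, but the same stem score chose both groups. A gene was called where the mean of both groups was at least 10 ppm, the difference was at least 1 on the log2 scale (2-fold, with 1 ppm added to each level), and all 8 sets had the same direction. By that rule 20 of 9450 genes were higher in the members (0.212%) and 23 were lower (0.243%), 0.455% in both directions together. Without the rule genes Gkn3 and Bex1 these were 19 and 22. Whether the ranges of the sets overlap is given below as description only. Called genes were already chosen for size and for 1 direction in all sets. The share of all genes without overlap was not measured. Of 12 proximal region genes considered, only Onecut2 and Gata4 were called, and the list median was 0.25. Of 9 distal region genes considered, 0 were called, and the list median was -0.45. The median number of detected genes was 2692.5 in members and 2648 in Bex1-positive cells, and the median stem score 1.91 and 1.85.

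Among transcription factors, Onecut2, a cut-homeobox factor (chromosome 18, 64340020 to 64400987, plus strand), showed the greatest difference of the named genes. Across the sets it was at 60.1 ppm at the lowest, 115 at the median and 195 at the highest in members, against 0, 6.36 and 28.9 ppm in Bex1-positive cells. The ranges do not overlap, and the pooled levels of 140.5 and 13.3 ppm give a log2 difference of 3.30, which was at least 1.59 under every alternative run. Gata4, a zinc finger factor of the proximal gut (chromosome 14, 63198922 to 63271692, minus strand), had 66.8, 119 and 170.5 ppm in members and at 7.90, 32.3 and 65.9 ppm in Bex1-positive cells by set. Its ranges also stand apart, though narrowly, and its log2 difference was 2.03. Its difference was below 1 with a stricter non-cycling rule (0.87), with cells matched on detected genes (0.99) and against Gkn3-negative stem cells whether or not they had Bex1 (0.76), and lost its call, at 2.03, with a score that lacked Olfm4. The stricter rule also required 0 for Mki67, Pcna, Mcm5, Birc5 and Hist1h2ap. The Bex1-positive cells matched on detected genes had a lower median stem score than the members, 1.57 against 1.91. Prdm16, a chromatin regulator of the PR-domain family, was at 46.8, 161 and 193 ppm in members against 0, 50.8 and 90.3 ppm, which overlap, with a log2 difference of 1.76.

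Signalling genes were among the higher ones too. Nrg4, which encodes a ligand of the receptor ErbB4, was at 40.1, 58.4 and 102 ppm in members by set and at 0, 12.3 and 27.1 ppm in Bex1-positive cells, without overlap (log2 1.99). Ptprm, a receptor-type tyrosine phosphatase gene, was at 62.4, 96.7 and 127 ppm against 6.70, 21.3 and 32.9 ppm, also without overlap (log2 2.02). Nrg4 overlaps Fbxo22, Sycn overlaps Samd4b and Blzf1 overlaps Nme7, each on opposite strands. In members Nme7 was at 194 ppm and Blzf1 at 21.6 ppm. Prdm16 and Ptprm, and of the lower genes Tshz2, St6gal1, Fstl4 and Aim2, also overlap transcripts of the other strand. No source at hand gives the strand setting of the counting. The remaining named genes were lower in level: the cytochrome P450 gene Cyp2e1 (log2 1.85), the zymogen granule gene Sycn (1.49), the thiamine transporter gene Slc19a2 (1.34), Abhd3 (1.29, but -0.47 with cells matched on detected genes), the glutathione transferase gene Gstm1 (1.26) and the golgin gene Blzf1 (1.24, but 0.27 with a stricter non-cycling rule). Clca4b, of the chloride channel accessory family, was at 158 ppm in members and 63.7 ppm in Bex1-positive cells (log2 1.30), but its direction turned with 800 cells per group (-0.06), a stricter non-cycling rule (-0.36) and matching on detected genes (-0.28).

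Of 8 genes of the Hoxb cluster on chromosome 11, 4 were called lower in members, beside 0.243% of all genes. This list was drawn up after the values were seen. Summed over 8 Hoxb genes, members were at 34.0, 66.7 and 107 ppm by set (lowest, median and highest), against 137, 213 and 259 ppm in Bex1-positive cells, with no overlap. All 7 that reached 10 ppm were below 0 in the log2 difference, and the 4 called were Hoxb3 (-2.23), Hoxb9 (-1.98), Hoxb6 (-1.46) and Hoxb4 (-1.38). Hoxb6 was at 0, 14.6 and 26.7 ppm in members by set and at 40.5, 51.5 and 60.2 ppm in Bex1-positive cells, which do not overlap. Hoxb3 was at 0, 7.81 and 13.4 ppm in members against 15.0, 34.9 and 43.9 ppm. Hoxb3 and Hoxb6 overlap transcripts of the other strand, so their reads may be shared.

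Beyond the cluster, Tshz2, a teashirt-family zinc finger gene (-1.85), the sialyltransferase gene St6gal1 (-1.50), the phosphoinositide adaptor gene Dapp1 (-1.42) and Bex4 (-1.32) were lower in members. So were the hydrogen peroxide-producing oxidase gene Duox2 (-1.31), Fstl4 (-1.30), the ubiquitin ligase gene Rnf180 (-1.30) and the DNA sensor gene Aim2 (-1.28). With the stricter non-cycling rule Tshz2 was at -0.088 and Duox2 at -0.11, and against Gkn3-negative cells with any Bex1 Bex4 was at -0.39, none of them called. Bex4 was at 4.30, 14.2 and 36.1 ppm in members by set and at 15.6, 39.1 and 79 ppm in Bex1-positive cells, which overlap. Of the 24 named genes in both directions, Onecut2 was the only one called under every alternative run. Those runs include a minimum of 50 ppm, which genes of lower mean level cannot pass and which left 6 called. With the stricter non-cycling rule 8 were still called, with cells matched on detected genes 10, and against Gkn3-negative stem cells with any Bex1 7. These runs do not compare the same cells. The stricter rule shared 158 of its 400 members with the main group and left 333 Bex1-positive cells. The cells with any Bex1 had a median of 2207.5 detected genes, against 2692.5 in members. Of the 2 other Bex genes, Bex3 was at 44.9 ppm in members and 58.5 ppm in Bex1-positive cells and was not called, and Bex2 was under 10 ppm in both.

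**Figure D2:**
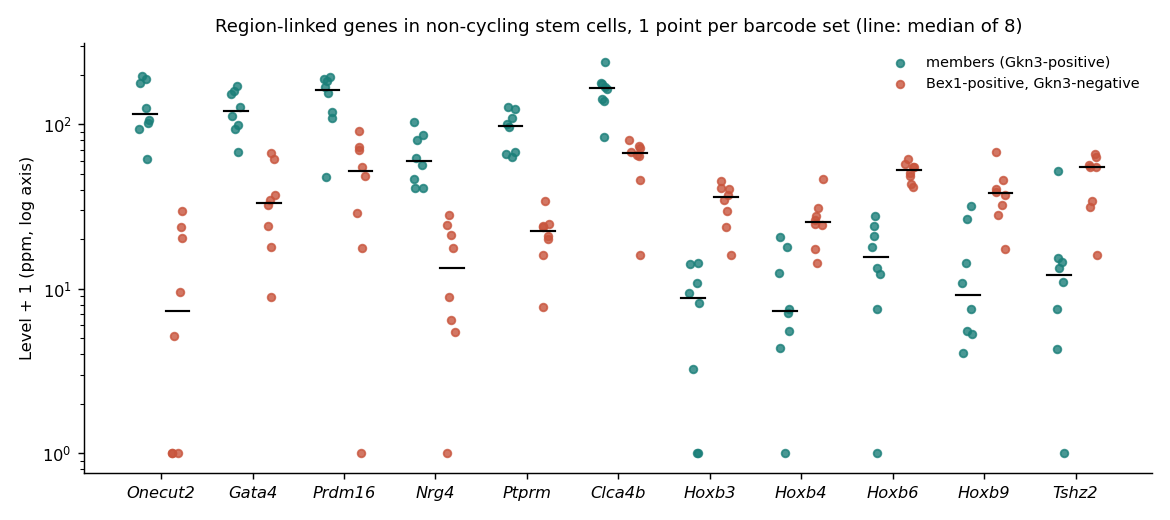
Level of 11 genes in 400 members (green) and 400 Bex1-positive, Gkn3-negative non-cycling stem cells (red), with 1 point per barcode set, black lines at the median of 8 sets and ppm plus 1 on a log axis. Onecut2, Gata4, Nrg4, Ptprm and Clca4b are higher and Hoxb3 and Hoxb6 lower in members with no overlap of sets, while Prdm16, Hoxb4, Hoxb9 and Tshz2 overlap. The genes were chosen for large differences in 1 direction, and the share of all genes without overlap was not measured.

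The difference from Bex1-positive cells was not one of members standing above the whole epithelium. Gata4 was at 135.1 ppm in members and 135.4 ppm in all other cells, and Onecut2 at 140.5 and 118.5 ppm. The Hoxb sum was 61.9 ppm in members and 55.5 ppm in all other cells, against 207 ppm in the Bex1-positive cells. Ptprm, Nrg4 and Cyp2e1 behaved otherwise and were called higher in members against all other cells as well: Ptprm stood at 91.9 and 26.8 ppm, Nrg4 at 59.4 and 11.98 ppm, and Cyp2e1 at 27.4 and 3.81 ppm.

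The Wnt, Notch and stem lists were close between members and Bex1-positive cells. The same score of stem and Wnt genes chose both groups, so closeness of the Wnt and stem lists is in part set by that choice. With 0.455% of all genes called, the lack of a call in such short lists says little. None of the 7 Wnt receptor genes considered, 13 signal transducers, 4 feedback inhibitors, 10 Wnt target genes or 12 Notch pathway genes was called, and their median log2 differences lay between -0.02 and 0.03, against 0.01 over all 9450 genes. Rnf43, a ubiquitin ligase that removes Frizzled receptors, was at 719 ppm in members and 758 ppm in Bex1-positive cells, and Lgr4, an R-spondin receptor, at 321 and 345 ppm. Of 27 other stem genes 1 was called, Clca4b. Lrig1 and Hopx, used as markers of slower-cycling crypt cells, were at 435 and 163 ppm in members and at 464 and 148 ppm in Bex1-positive cells.

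No MHC class II gene was called. The 6 MHC class II genes considered, which present antigen to T cells, all had negative log2 differences, with a median of -0.60. Their sum was 107, 282 and 361 ppm in members by set and 105, 461 and 575 ppm in Bex1-positive cells, which overlap.

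The shares of cells count the same genes in the same cells, so they restate the contrast and are no further support for it. Onecut2 or Gata4 had a value in 61.5% of members (56.5 to 66.3, exact binomial 95% interval, 246 cells) and in 17.8% of Bex1-positive cells (14.1 to 21.9). Any of the 8 Hoxb genes had a value in 16% of members (12.5 to 19.97) and 39.5% of Bex1-positive cells (34.7 to 44.5). By set, the first share was 41.7% to 75% in members and 5% to 25% in Bex1-positive cells, which do not overlap. In the enterocyte group, Onecut2 or Gata4 had a value in 73.2% and a Hoxb gene in 2.5% of cells, so free RNA in the droplets cannot be read from that group for the proximal factors.

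Of the members, 104 also had a value for Bex1. Onecut2 or Gata4 had a value in 70.3% (64.7 to 75.4) of the 296 members without Bex1 and in 36.5% (27.3 to 46.6) of the 104 members with it, against 18.3% (14.4 to 22.8) of 344 Bex1-only cells in the same score range. For Hoxb genes the shares were 11.1%, 29.8% and 38.4%. In the 894 cells of that score range with neither gene, the shares were 34.2% for Onecut2 or Gata4 and 20% for Hoxb genes. The median number of detected genes was 2610, 2808.5, 2669.5 and 1881 in these 4 classes, and its part in the shares was not tested. Within the members, a Hoxb gene had a value in 10.6% (7.02 to 15.1) of the 246 with Onecut2 or Gata4 and in 24.7% (18.1 to 32.3) of the 154 without. The median number of detected genes was 2822.5 and 2462.5, and its part was not tested. Both kinds of gene occurred in 26 members and neither in 116.

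**Figure D3:**
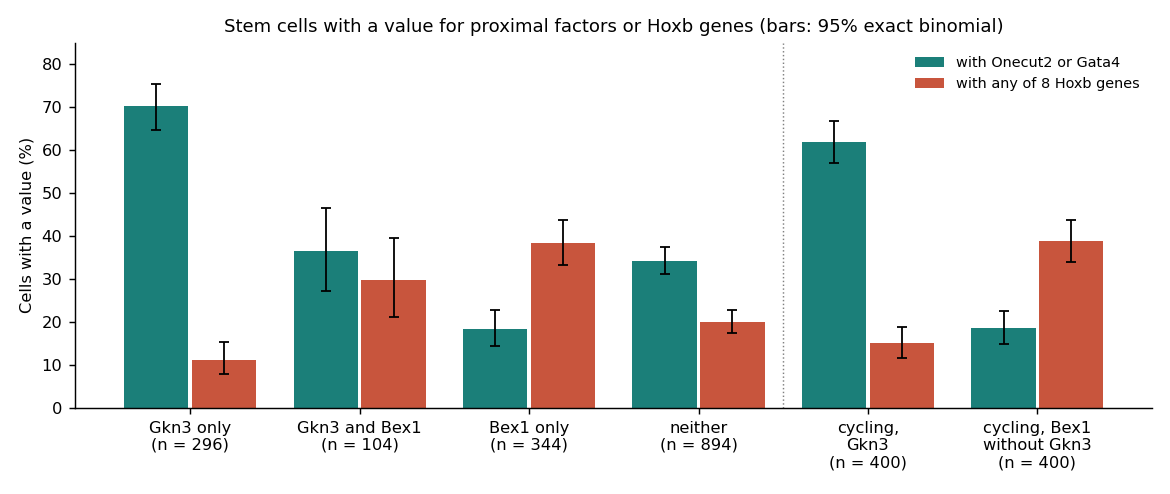
Percent of cells with a value for Onecut2 or Gata4 (green) and for any of 8 Hoxb genes (red), with exact binomial 95% intervals that cover counting error only. Left of the dotted line are non-cycling cells at or above the lowest member's score, split by Gkn3 and Bex1 (the first 2 classes are the members), and right of it cycling stem cells. The green bars fall and the red bars rise across the first 3 classes, and the cycling pair repeats the contrast (62.0% against 18.5%, and 15% against 38.8%).

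The contrast was also drawn in cells outside the members. Between 400 cycling Gkn3-positive stem cells and 400 cycling cells with Bex1 and without Gkn3, 28 of 9713 genes were called higher (0.288%) and 21 lower (0.216%), 0.504% in all, over the 7 sets with at least 10 cells of each. Of the 19 genes called higher in members, 18 had the same sign there and 8 were called, among them Onecut2, Gata4, Prdm16, Nrg4, Ptprm, Cyp2e1 and Clca4b. In all, 27 genes outside the rule were called higher there. Of the 22 called lower in members, 20 had the same sign and 9 were called, Hoxb9, Hoxb6, Hoxb4, Bex4, Rnf180, St6gal1 and Fstl4 among them, of 20 called there outside the rule. Below the members in score, the 618 other eligible Gkn3-positive cells against the next 428 Bex1-positive cells gave 35 of 9300 genes higher (0.376%) and 9 lower (0.0968%), 0.473% in all. Of the 19 genes, 15 had the same sign there and 7 were called, and of the 22 genes 18 and 5. These 618 cells differ from the members in more than score: the enterocyte list summed to 15261 ppm in them, against 14321 ppm in the 428 cells, and the list of gastrokine, trefoil and stomach mucin genes to 14669 against 1492 ppm, with Tff1 and Tff2 called. Gkn3 and Bex1 chose every pair of groups, and all cells come from the same 8 sets. The share of all genes with the same sign in both comparisons was not measured, so nothing is read from the sign counts.

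Next to cycling Gkn3-positive stem cells, the members had lower levels of G2 and M phase and histone genes, which the 4 genes in the rule set in part. Of 9637 genes, 182 were lower in members (1.89%) and 1 was higher (0.0104%), 1.90% in all. The rule chose both groups on 4 division genes, and the G2 and M phase, histone and S phase lists hold genes of the same phases. Nothing is read from these numbers or from which list differed most. Cycling cells also had more detected genes, 3017 at the median against 2692.5 in members, and a higher stem score, 1.99 against 1.91. With cells matched on detected genes 101 genes were lower in members. Those matched cycling cells had a lower median stem score than the members, 1.61 against 1.91.

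All 20 G2 and M phase genes had negative log2 differences and 19 were called lower in members. The kinase gene Aurka missed the call, at 2.91 ppm in members and 25.6 ppm in cycling cells. The median log2 difference of the list was -2.36, against -0.03 over all genes. Mki67, the proliferation antigen, was at 8.47, 64.9 and 123 ppm in members by set and at 142.5, 292 and 417 ppm in cycling cells, without overlap. It still had a value in 24.5% of members, against 51.5% of cycling cells and 1.75% of the enterocyte group. Only 158 of the 400 members had 0 for all of Mki67, Pcna, Mcm5, Birc5 and Hist1h2ap. The 4 rule genes therefore left division transcripts in most members. The leading genes were Depdc1a (-3.99), the cohesin acetyltransferase gene Esco2 (-3.87), the spindle checkpoint kinase gene Ttk (-3.80), the spindle gene Aspm (-3.57), Nusap1 (-3.55), Efcab11 (-3.54), the kinesin genes Kif14 (-3.44) and Kif4 (-3.30), Anln, whose product acts in cytokinesis (-3.40), Cdca2 (-3.32), the histone gene Hist1h2ab (-3.31) and Hmmr (-3.30).

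The S phase list summed to 748 ppm in members, 1210 ppm in cycling cells, 867 ppm in all other cells and 144 ppm in the enterocyte group. Of 13 replication-dependent histone genes 9 were lower in members (median -1.76), and of 19 S phase genes only Tyms and Uhrf1 (median -0.64). Mcm6, a subunit of the replicative helicase, was at 83.5 ppm in members and 106 ppm in cycling cells and was not called. Of 11 G1 cyclin, kinase and inhibitor genes 1 was lower, Rbl1, and Cdkn1b, the inhibitor p27, was at 38.7 ppm in members and 55.0 ppm in cycling cells without a call. The chromatin gene Hmgb2 (-1.45) and the tubulin gene Tubb5 (-1.34) were lower as well.

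No stem or regional gene on the lists was called between members and cycling cells. Onecut2 was at 140.5 ppm in members and 139.9 ppm in cycling cells, Gata4 at 135.1 and 126.1 ppm, and the Hoxb sum at 61.9 and 53.5 ppm. The proximal list had 10 of 10 genes positive with a median log2 difference of 0.56, and the distal list 7 of 9 with a median of 0.47. None of the Wnt receptor, transducer, feedback or target genes, the other stem genes or the Notch genes was called. Here too the same stem score chose both groups. Rnf43 was at 719 and 746 ppm and Axin2, a rule gene, at 271 and 331 ppm. Ribosomal protein genes lay slightly above in members, with 79 of 80 positive and a median of 0.13. The enterocyte marker list had a median of 0.62, and its sum was 1290 ppm in members and 834 ppm in cycling cells.

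Guca2b, which encodes the peptide uroguanylin, was the 1 gene called higher in members against cycling cells, at 46.1 and 16.1 ppm (log2 1.47). Set 4 decides part of it: its 12 members were at 506 ppm, while all other sets of members lay at 67.7 ppm or less, and without set 4 the log2 difference was 1.08. It was not called with cells matched on detected genes (0.16). Guca2b was at 3707 ppm in the enterocyte group, and free RNA was not tested as a part of this result.

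**Figure D4:**
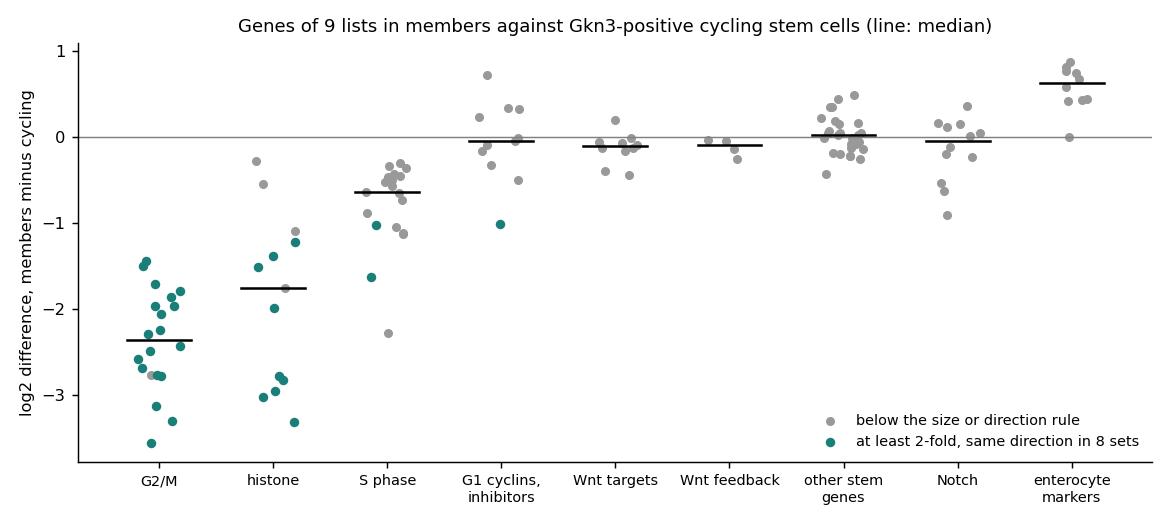
Log2 difference of members minus Gkn3-positive cycling stem cells for the genes of 9 lists, with 1 point per gene, black lines at the list median and green points for genes past the size and direction rule. G2/M and histone genes lie far below 0 (medians -2.36 and -1.76), S phase genes less far (-0.64), and Wnt, stem and Notch genes around 0.

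Against all 27481 other cells of the table, 476 of 9522 genes were higher in members (5.00%) and 740 lower (7.77%), 12.8% in all, with a median log2 difference of 0.16 over all genes. The rule used this contrast in its stem genes, so it describes and tests nothing. Outside the rule genes, members were higher in all 3 Wnt feedback inhibitors considered, Rnf43, Znrf3 and Sp5, in 7 of 9 Wnt target genes, among them Sox9 and Cd44, in 15 of 27 other stem genes, and in Notch1, Notch2 and the Notch target Hes1. The leading genes included the glutamate transporter gene Slc1a2 (91.9 ppm in members and 15.4 ppm in all other cells), Agr3 of the protein disulfide isomerase family (92.3 and 15.7 ppm) and Soat1, which esterifies cholesterol (436 and 81.3 ppm). All 12 enterocyte markers were lower in members, as were 6 of 13 glycolysis genes. The ribosomal protein genes summed to 191563 ppm in members and 134029 ppm in all other cells.

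Members were not uniform in Gkn3 per cell total, and other genes differed between groups split by it. The members were ordered by Gkn3 per cell total and split into 3 groups of near equal size, called Gkn3-low, middle and Gkn3-high. Gkn3 was at 608 ppm in Gkn3-high and 153 ppm in Gkn3-low members, which is the ordering itself. Of 9510 genes, 56 were higher in the Gkn3-high members (0.589%) and 73 lower (0.768%), 1.36% in all, over 5 sets with at least 10 cells of each. Gkn3 had a value of 1 in 208 members, and the Gkn3-low members were those of them with the largest totals, 4935 to 8783 units. The split is therefore in part a split by cell total. Median totals and detected genes were 5008 units and 2573 genes in Gkn3-high members, against 6213 units and 2951 genes in Gkn3-low members. Their part in these results was not tested. Without set 2, 5 or 7 the count of lower genes was 140, 153 or 118, and without set 2, 3, 5 or 7 that of higher genes was 107, 92, 92 or 96. On mean values per cell, not scaled to the cells' totals, 26 genes were higher and 153 lower.

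The brush border genes Sis, which encodes sucrase-isomaltase (72.6 ppm in Gkn3-high and 13.8 ppm in Gkn3-low members, log2 2.32), and Anpep, aminopeptidase N (77.8 and 17.2 ppm, 2.11), led the higher genes with the carboxylesterase gene Ces1e (2.60), Wfdc10 (2.19), Purg (2.11) and the lysosomal regulator gene Tfe3 (1.96). Of 11 enterocyte markers 3 were called, Sis, Anpep and Mttp, the last of which loads lipid onto apolipoprotein B. Their list summed to 1603 ppm in Gkn3-high and 854 ppm in Gkn3-low members, and the goblet list to 2030 and 1320 ppm. Onecut2 was at 213 and 94.1 ppm (1.17), while Gata4, at 153 and 121 ppm, was not called.

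Bex1 ran the other way, at 28.5 ppm in Gkn3-high and 115 ppm in Gkn3-low members (-1.97), and so did the Hoxb sum, at 19.5 and 91.8 ppm. The lower genes were led by Rundc3b (24.6 and 104 ppm, -2.04), the centromere gene Cenpp (-2.01), Mettl2 (-1.99), Lin37 of the DREAM repressor complex (-1.90), the deacylase gene Sirt5 (-1.90) and the adenylate cyclase gene Adcy8 (25.9 and 97.6 ppm, -1.87). Rundc3b was also at 68.2 ppm in members and 113 ppm in Bex1-positive cells, and Adcy8 at 62.3 and 119 ppm, without overlap of sets, although neither reached the size rule there (-0.72 and -0.92). The MHC class II gene H2-Eb1 was at 23.3 ppm in Gkn3-high and 58.5 ppm in Gkn3-low members (-1.29). Lgr5 was at 1358 and 1314 ppm, which the score holds close.

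**Figure D5:**
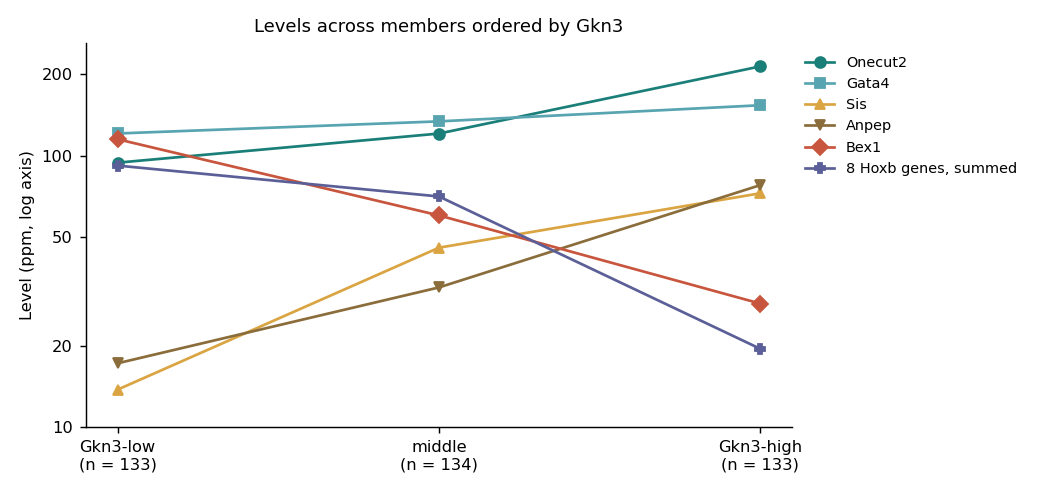
Levels in the members split by Gkn3 per cell total, from lowest to highest, on a log axis in ppm. The Gkn3-low members are cells with a Gkn3 value of 1 and large totals, so the split also follows cell total. Onecut2, Sis and Anpep are highest and Bex1 and the summed Hoxb genes lowest in the Gkn3-high members, while Gata4 changes little (121 to 153 ppm).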

How the data were processed

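The authors' deposited matrix holds whole-number values that were treated as a score with no stated unit, since 2 was more frequent than 1 in 25.3% of cells and cell totals ran only from 2764 to 9739. Cell Ranger and the build mm10 are named, without version, in the submitters' processing notes. Any later rescaling by the authors is not stated, so no count model was fitted, and the total per cell (median 5503) is not a depth. The planned test of this kind of table was a description, and no p-value was computed: the 8 diet samples cannot be told apart in the table and the 8 barcode sets are only numbered. The members and gene lists were chosen with earlier results of these data known, and the Hoxb, Bex, Gata, Onecut and Prdm lists after values were seen.

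Levels, the calling rule and the comparison groups are as given in the text, and a set entered a comparison with at least 10 cells of each group. Named genes were the 12 largest differences called in each direction (6 for the split by Gkn3), without rule genes and genes known only by clone numbers, plus the listed genes; Rundc3b and Adcy8 were also named against the Bex1-positive cells after their values were seen. Shares have exact Clopper-Pearson 95% intervals. Python 3.11.15, numpy 2.4.6, pandas 2.3.3, scipy 1.17.1, scanpy 1.11.5 (doublet scores) and matplotlib 3.10.9 were used, with Biopython 1.88 for alignments. The calling rule was also run on simulated independent counts. The deposited values do not behave as counts, so that run does not give the rule's error in these data. Promoters are from RefSeq.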

Additional observations from a re-analysis of the deposited data

Results flagged for a closer look

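By barcode set, 44 results were screened for a set far from the other 7, and 8 stood apart. Those screened were log2 differences of named genes, shares of members and levels of the stem markers. The critical value used is set so that chance marks about 1 in 20 groups of equally precise values, which these sets are not. Sets 1 and 4, with 20 and 12 members, gave 7 of the 8. Against Bex1-positive cells, the log2 difference of Prdm16 was 7.55 in set 1, with the nearest set at 1.93. Prdm16 was at 0 ppm in the Bex1-positive cells of set 1, so the size depends on the 1 ppm added. Clca4b was at 3.40 in set 4 and 1.81 in the nearest set, and Gstm1 at 5.55 in set 4 and 2.39 in the nearest. Hoxb6 was at -5.93 in set 4 against -2.68, Dapp1 at -5.77 in set 1 against -1.91, Duox2 at -4.00 in set 4 against -1.83 and Rnf180 at -5.53 in set 4 against -2.03. The level of Hoxb6 in the members of set 4 was 0 ppm, so the same holds for its size. Against cycling cells, Nusap1 was at -7.15 in set 6, with the nearest set at -4.21. The calling rule required 1 direction in all sets, so their signs carry no information.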

How the results depend on the processing

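No paired analysis was possible because the pooled table carries no replicate number from the labels and no test was run; groups were compared within barcode sets only as a rule of direction. Against Bex1-positive cells, the 20 higher genes became 31 with 200 cells a group, 36 with cells matched on detected genes, 10 with a pseudocount of 10 ppm and 7 with a minimum of 50 ppm. The 23 lower genes became 181 with matched cells, 35 without sets 1 and 4, 11 with the pseudocount of 10 ppm, 5 with the minimum of 50 ppm and 10 against Gkn3-negative cells with any Bex1. The matched Bex1-positive cells had a median stem score of 1.57, against 1.91 in members, so that run changed the score as well. Leaving out 1 set gave 21 to 28 higher and 23 to 32 lower. Clca4b reversed to -0.063 with 800 cells a group, -0.36 under a stricter non-cycling rule and -0.28 with matched cells, and Abhd3 to -0.47 with matched cells. Of 24 named genes, 8 were still called under the stricter rule, 10 with matched cells and 7 against cells with any Bex1; the cause was not tested.

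Against cycling cells, the 1 higher gene became 9 with 200 cells, 135 with 800 cells, 374 under the stricter rule and 13 with matched cells. It became 2, 4 and 5 with scores lacking Olfm4, Lgr5, or Igfbp4 and Slc12a2, 9 with sets weighted equally, 7 without sets 1 and 4, 0 with the minimum of 50 ppm and 3 with no minimum. The 182 lower genes became 365 under the stricter rule, 101 with matched cells and 48 with the minimum of 50 ppm. Leaving out 1 set gave 1 to 6 higher and 181 to 206 lower.

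In the split by Gkn3, the 56 higher and 73 lower genes became 19 and 14 with the pseudocount of 10 ppm, 5 and 7 with the minimum of 50 ppm, and 26 and 153 on mean values not scaled to the cells' totals. Leaving out 1 set gave 54 to 107 higher and 74 to 153 lower. Set 5 held 18.2% of members, 23% of 200 and 11.9% of 800, and set 7 held 13% of members and 16.8% of 800. The alternatives with any Bex1, without sets 1 and 4, and with the Gkn3 split made within each set (68 higher and 58 lower) were chosen after seeing the data. The depth behind the values is unknown, so how far it limits low genes cannot be stated.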

Other observations

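Outside the members, the 618 other Gkn3-positive non-cycling cells included cells with stomach genes. Tff1, a trefoil peptide of stomach surface mucous cells, was at 25.4 ppm in members, 5787 ppm in those other cells and 378 ppm in all cells but the members, and had a value in 12.8% of members and 14.4% of those other cells. Gkn2, another gastrokine, was at 13.7 ppm in members and 2818 ppm in those other cells, with a value in 7% of members and 10.4% of the others. Muc5ac, the stomach surface mucin, had a value in 1 of 400 members and in 18 of the 618.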
